A study of Mus musculus with 24 samples.

Results

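Oligodendrocytes of the amygdala of adult mice were compared with oligodendrocyte precursor cells by single-nucleus RNA sequencing, within each of 4 libraries. The comparison rests on 1727 oligodendrocyte nuclei and 1286 precursor nuclei, together 3013 of the 21648 nuclei that the 4 RNA libraries held. These 4 samples are part of a series of 24 that also covers chromatin accessibility and DNA methylation of the same region. The animals were males of 2 inbred strains, BL6 and DBA, 10 to 16 weeks old, with no treatment or transgene named in either strain. Each library pooled tissue from about 2 animals, and each strain had 2 libraries. Nuclei were sorted to a mixture of 75% NeuN-positive, neuronal, and 25% NeuN-negative, non-neuronal nuclei, so that the share of a glial type among all nuclei is set in part by the sort. The count table numbers the libraries of a strain 2 and 3 while the sample titles number them 1 and 2, so a library here is known by its strain and not by its title. Values below stand in the order BL6 library 2, BL6 library 3, DBA library 2 and DBA library 3.

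Oligodendrocyte precursors are the dividing glial cells of the adult brain that keep making oligodendrocytes. They respond to platelet-derived growth factor through the receptor Pdgfra, receive synapses from neurons and coat themselves with chondroitin sulfate proteoglycans. On differentiation they leave the cell cycle, pass through a short-lived newly formed stage marked by Bmp4, Enpp6 and Bcas1, and then wrap axons with myelin, a stack of membrane held together by proteins such as Mbp and Mog and rich in cholesterol and galactolipids. Transcription factors of the SOX family, Olig1 and Olig2 act in both stages, while Myrf and Nkx6-2 act in the switch to myelin genes.

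The 4 oligodendrocyte columns held 766, 449, 224 and 288 nuclei, and the 4 precursor columns 424, 331, 203 and 328. Summed counts per column ran from 969635 to 2697769 in oligodendrocytes and from 1478125 to 2251815 in precursors. Counts per nucleus were lower in oligodendrocytes than in precursors of the same library in all 4 libraries, at 3522, 3432, 4933 and 3367 against 5311, 5180, 7281 and 4775. Oligodendrocytes made up 9.48% (95% exact binomial interval 8.85 to 10.1), 10.1% (9.27 to 11.1), 7.81% (6.86 to 8.86) and 4.59% (4.08 to 5.14) of a library's nuclei. Oligodendrocytes per precursor came to 1.81 and 1.36 in BL6 and to 1.10 and 0.878 in DBA, so both BL6 libraries lay above both DBA libraries, without a test at this number of libraries. Intervals cover counting error only. A column sums the RNA of all nuclei that the authors gave to a type, so fewer nuclei with a transcript and less of it per nucleus cannot be told apart.

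Markers of the 2 types followed the names. Mog, a myelin surface protein (chr17:37010740-37023398, mm10), was at 1079, 1123, 1300 and 1152 normalized counts per 1000000 (CPM) in oligodendrocytes and at 5.41, 3.88, 4.71 and 4.35 CPM in precursors. Pdgfra (chr5:75151322-75198206) was at 4.17, 9.02, 2.11 and 1.18 CPM in oligodendrocytes and at 1041, 1328, 1046 and 1072 CPM in precursors. In every library each marker was high in its own type and low in the other, with no overlap between the types. The change, oligodendrocyte minus precursor, was 7.93 ± 0.16 (SE) on the log2 scale for Mog (adjusted p = 8.8e-15) and -7.94 ± 0.22 for Pdgfra (adjusted p = 7.4e-14). Here and below, CPM is scaled by the trimmed mean of M values, changes and their standard errors come from edgeR's quasi-likelihood test with the library as a block, p-values are adjusted by the Benjamini-Hochberg method over 14230 genes with 10 or more counts in each strain, and a gene was called at an adjusted p under 0.05. These p-values rest on the spread between 4 libraries, with the spread of each gene estimated in part from all genes tested. The standard errors were computed from the F statistic of the same test. How nuclei were given their type is not given in the sources used here. Where RNA of these nuclei served for that, the tests between types are not independent evidence that the types differ. Whether the line between the types fell alike in both strains was not tested.

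**Figure D1:**
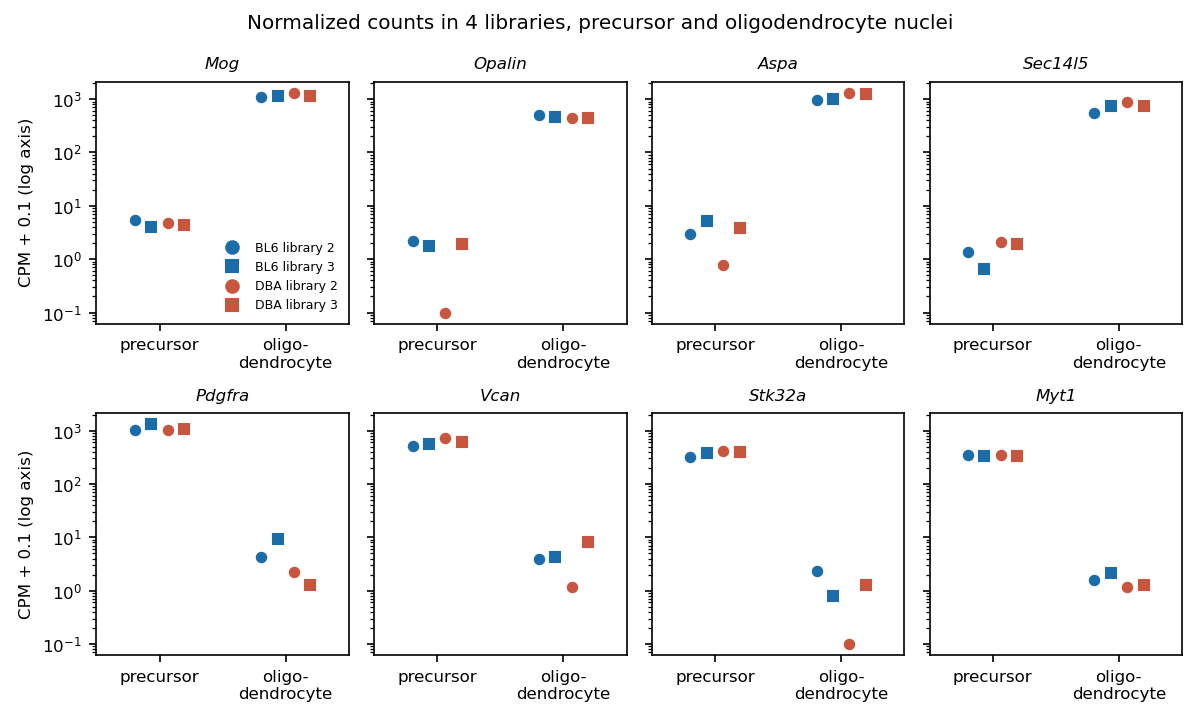
CPM plus 0.1 on a log axis in precursor and oligodendrocyte nuclei for 8 genes, 1 point per library (blue BL6, red DBA; circle library 2, square library 3). Mog, Opalin, Aspa and Sec14l5 were high in all 4 oligodendrocyte columns, and Pdgfra, Vcan, Stk32a and Myt1 in all 4 precursor columns, with no overlap between the types.

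The difference between the types covered much of the transcriptome: 7177 genes were called, or 50.4% of those tested. Of these, 3400 (23.9%) were higher in oligodendrocytes and 3777 (26.5%) were lower. Among called genes the median absolute change was 1.38 on the log2 scale. When tested against a change of at least 2-fold, 1204 genes (8.46%) were higher and 2068 (14.5%) were lower. The balance of directions depended on the scaling: 47.4% of called genes were higher with the scaling used here, and 35.7% with total counts alone, under which the median over all genes moved by -0.18 on the log2 scale. Malat1, a nuclear non-coding RNA, took 14.9% to 20.3% of all counts in the oligodendrocyte columns and 5.65% to 6.45% in the precursor columns, and its part in that shift was not tested.

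The largest rises and falls among well-measured genes called in both strains were losses or gains of nearly the whole signal. Sec14l5, a Sec14-like lipid-binding protein, was at 560, 746, 872 and 727 CPM in oligodendrocytes and at 1.25, 0.554, 2.02 and 1.86 CPM in precursors, a change of 8.93 ± 0.20 (adjusted p = 1.6e-14). Prr5l, a partner of the mTORC2 kinase complex, was at 1569, 1702, 1752 and 1788 CPM against 4.16, 1.11, 3.37 and 6.83 CPM. Aspa, the enzyme that splits N-acetylaspartate and so frees acetate, was at 960, 998, 1301 and 1268 CPM against 2.91, 4.99, 0.673 and 3.73 CPM. All 3 genes were low in every precursor column. For Galnt5, a glycosyltransferase of mucin-type sugars, the 4 precursor columns held 1 count in all against 1450 in oligodendrocytes, a ratio of 1806 with a counting interval of 324 to 71386. Fbxw15, an F-box protein, had 2 counts in precursors against 2427 in oligodendrocytes, a ratio of 1512 (418 to 12488).

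On the falling side, Stk32a, a serine/threonine kinase, was at 2.27, 0.694, 0 and 1.18 CPM in oligodendrocytes and at 325, 379, 423 and 390 CPM in precursors. Plpp4, a phospholipid phosphatase, was at 1.52, 0.694, 2.11 and 0 CPM against 224, 269, 318 and 284 CPM, a change of -7.68 ± 0.23 (adjusted p = 8.3e-14). Both were near 0 in every oligodendrocyte library and high in every precursor library. Car8, a carbonic anhydrase relative, had 3 counts in oligodendrocytes against 1149 in precursors (ratio 307, 105 to 1493), and Rlbp1, a retinaldehyde-binding protein, 2 against 631 (ratio 253, 69.8 to 2096). Has2os, transcribed antisense to the hyaluronan synthase gene Has2, had 3 counts against 643 (ratio 172, 58.6 to 837). Has2 itself had 2 counts against 395 (ratio 159, 43.6 to 1314), and reads of an antisense pair cannot be told apart unless the counting used strand, which is not given in the sources used here.

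Gene groups with a known part in the lineage are described next by how many tested members were called. The list figures are to be read against the background of 23.9% higher and 26.5% lower over all genes, with a median change of 0.02. Many genes named here were chosen by small p-values or large changes, so a lack of overlap between the types follows in part from that choice. The share of all tested genes without such overlap is not given here.

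**Figure D2:**
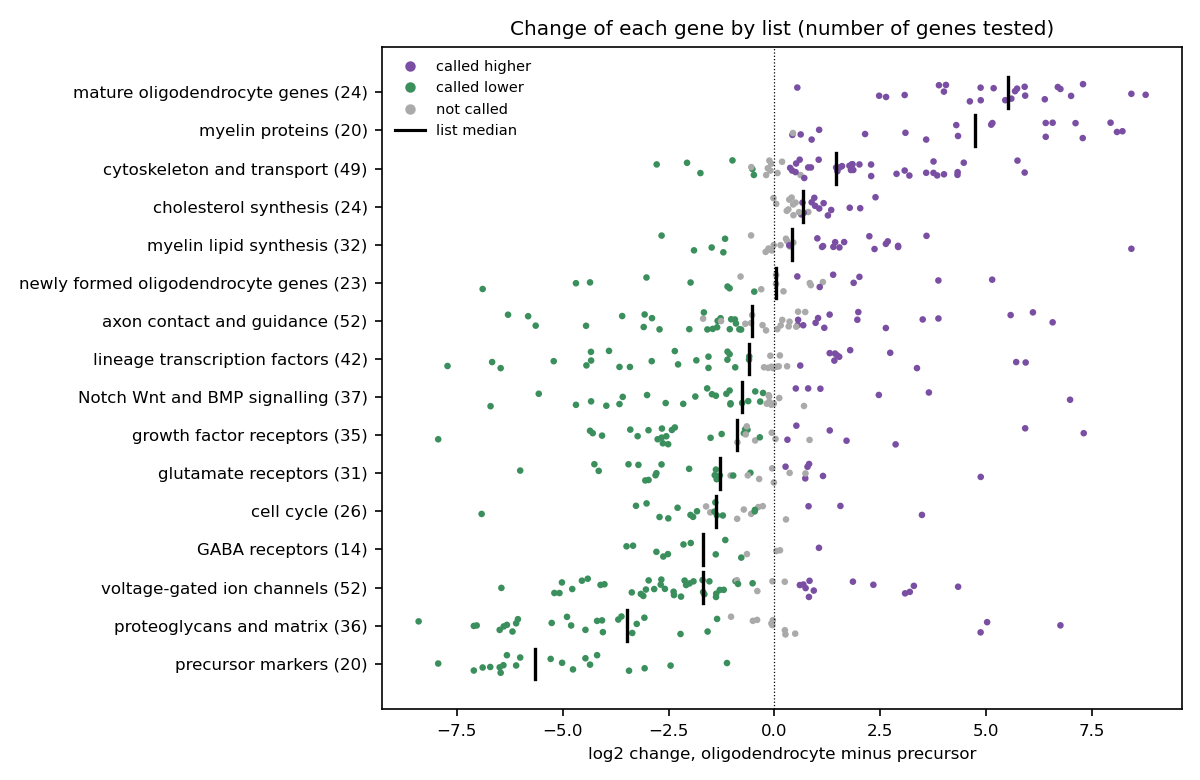
log2 change from precursor to oligodendrocyte (x axis) for each tested gene of 16 lists (rows, number of genes tested in brackets); purple points were called higher, green called lower, grey not called, and the black bar is the list median. Medians run from -5.64 for precursor markers to 5.52 for mature oligodendrocyte genes, and transcription factors hold members on both sides.

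All 20 precursor markers were called lower, each of them in both strains, with a median change of -5.64. Vcan, the large proteoglycan versican, was at 3.79, 4.16, 1.05 and 8.24 CPM in oligodendrocytes and at 505, 555, 738 and 609 CPM in precursors (-7.10 ± 0.22, adjusted p = 2.7e-13). Xylt1, the xylosyltransferase that starts the sugar chains of proteoglycans, was at 28.1, 21.5, 22.1 and 30.6 CPM against 1864, 1855, 1627 and 1602 CPM (-6.10 ± 0.14, adjusted p = 1.8e-14). Both were more than an order of magnitude apart in every library. Cspg4, the NG2 proteoglycan by which these cells are often stained, changed by -4.19 ± 0.14. The smallest fall in the list was that of Matn4, a matrix protein, with 65.6, 97.1, 102 and 104 CPM in oligodendrocytes and 175, 208, 191 and 211 CPM in precursors.

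Myelin proteins rose in 19 of 20 tested members, with a median change of 4.72, and 18 of them were called in each strain. Opalin, a membrane protein found in central myelin, was at 506, 470, 439 and 433 CPM in oligodendrocytes and at 2.08, 1.66, 0 and 1.86 CPM in precursors. Cnp, an enzyme of the myelin cytoplasmic channels, was at 273, 314, 205 and 285 CPM against 32.4, 35.5, 25.6 and 32.3 CPM (3.09 ± 0.12). For both genes the oligodendrocyte columns lay above the precursor columns. The list also held small changes: Cd9 rose by 0.42 ± 0.12, Omg by 0.62 ± 0.16 and Gpm6b by 0.88 ± 0.10, all read in every precursor column. The call for Cd9 was lost without BL6 library 3 (adjusted p = 0.076), with DESeq2 (0.12) and with scaling to total counts alone (0.13), and that for Omg with DESeq2 (0.06). Pmp22, better known from peripheral myelin, was at 21.6, 21.5, 34.8 and 18.8 CPM against 20.4, 21.6, 12.1 and 13 CPM and was not called (adjusted p = 0.15).

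All 24 tested genes of the mature oligodendrocyte list were called higher, each in both strains, with a median change of 5.52. Trf, the iron carrier transferrin, was at 1085, 1113, 1480 and 1385 CPM in oligodendrocytes and at 15.8, 12.2, 9.42 and 9.32 CPM in precursors (6.69 ± 0.18, adjusted p = 8.3e-14). Dock5, an activator of the small GTPase Rac, was at 226, 241, 316 and 261 CPM against 1.25, 1.66, 2.02 and 3.11 CPM (7.00 ± 0.19). Gjc3, a connexin of glial gap junctions, stood at the other end, with 814, 871, 1002 and 858 CPM against 491, 513, 737 and 740 CPM (0.54 ± 0.11, adjusted p = 0.00065). Its groups did not overlap, but the step was small beside that of the others.

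Genes of the newly formed stage split 3 ways: of 23 tested, 7 were called higher, 8 lower and 8 not called. Their median change of 0.04 had no stable sign, at -0.13 without BL6 library 3 and between 0.21 and 0.27 without any 1 of the other libraries. Bmp4, a secreted factor of committed precursors, was at 0, 1.39, 0 and 1.18 CPM in oligodendrocytes and at 8.32, 2.22, 39.7 and 32.3 CPM in precursors. Its 3 counts in oligodendrocytes against 135 in precursors gave a ratio of 36.1 with an interval of 12.1 to 177. Enpp6, a choline phosphodiesterase used to stain newly formed cells, was at 83.0, 72.1, 146 and 118 CPM against 44.9, 4.43, 66.0 and 97.5 CPM and was not called (adjusted p = 0.17). Under other settings Enpp6 was called higher: without BL6 library 3 (adjusted p = 0.0016), with DESeq2 (0.011) and with an edgeR fit that was not robust (0.0065). The precursor columns of Bmp4 and Enpp6 differed widely among libraries, with BL6 library 3 lowest for both. Bcas1, a protein of early myelinating cells, was at 601, 630, 693 and 585 CPM against 524, 431, 849 and 721 CPM, higher in oligodendrocytes in both BL6 libraries and lower in both DBA libraries (adjusted p = 0.011 for the strain difference). That call was lost without BL6 library 3 (adjusted p = 0.23), DBA library 2 (0.16) or DBA library 3 (0.076), with DESeq2 (0.62) and without the library block (0.093). Itpr2, a calcium release channel, fell by 3.02 ± 0.33 (adjusted p = 0.00085), from 422, 415, 497 and 516 CPM in precursors to 28.8, 45.1, 126 and 58.8 CPM. Kndc1, a kinase-like domain protein, rose by 5.14 ± 0.15, and Arpc1b, a subunit of the actin-nucleating Arp2/3 complex, by 2.01 ± 0.19. Summed over the list, precursors held 2736 and 2450 CPM in BL6 and 3597 and 3363 CPM in DBA, so both DBA precursor columns lay above both BL6 columns.

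Lineage transcription factors fell more often than they rose, with 22 of 42 tested genes lower, 11 higher and 9 not called (median -0.60). Myt1, a zinc finger factor, was at 1.52, 2.08, 1.05 and 1.18 CPM in oligodendrocytes and at 343, 330, 344 and 329 CPM in precursors (-7.72 ± 0.20, adjusted p = 2.5e-14). Sox6 and Sox5, SOX factors known to hold back differentiation, changed by -6.46 ± 0.18 and -5.21 ± 0.15. Olig2 was at 21.2, 34.7, 12.6 and 28.2 CPM against 76.5, 85.9, 98.9 and 95 CPM (-1.84 ± 0.19, adjusted p = 5.7e-07). Myt1, Sox5, Sox6 and Olig2 were lower in oligodendrocytes in all 4 libraries. The ETS factors Etv4 and Etv5, which respond to growth factor signalling, changed by -6.67 ± 0.32 and -4.33 ± 0.16.

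Factors of the myelin programme went the other way. Myrf was at 134, 212, 159 and 166 CPM in oligodendrocytes and at 15.8, 19.96, 15.5 and 12.4 CPM in precursors (3.36 ± 0.14, adjusted p = 2.7e-12). Nkx6-2 was at 66.7, 101, 150 and 125 CPM against 1.66, 0.554, 0.673 and 3.73 CPM (5.93 ± 0.27). Zfp536, a zinc finger repressor, was at 1753, 1926, 1660 and 1835 CPM against 245, 253, 276 and 307 CPM (2.73 ± 0.11). None of these overlapped between the types. St18, a relative of Myt1, rose by 5.71 ± 0.59 (adjusted p = 0.0036), from 111, 18.3, 86.8 and 102 CPM in precursors to 3485, 3610, 4320 and 3751 CPM, so the 2 relatives moved in opposite directions. Sox2, often named as a precursor factor, rose by 1.41 ± 0.15 (adjusted p = 3.8e-07). Sox10, at 387, 421, 464 and 488 CPM against 357, 406, 426 and 418 CPM, changed by 0.13 ± 0.10, and Olig1 by -0.15 ± 0.12. Within libraries Sox10 was higher in oligodendrocytes in 4 of 4 and Olig1 lower in 4 of 4. Neither was called (adjusted p = 0.31 for both), and their groups overlapped. With scaling to total counts alone Olig1 was called lower (-0.33, adjusted p = 0.027).

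Notch, Wnt and BMP signalling genes were called lower in 23 of 37 tested and higher in 6 (median -0.76). The Notch targets Hes5 and Hes1 fell by 3.66 and 4.33 on the log2 scale, Hes5 from 129, 224, 144 and 184 CPM in precursors to 16.7, 17.3, 3.16 and 9.42 CPM. Lgr5, a receptor for R-spondins that heightens Wnt signalling, was at 1.52, 0.694, 0 and 2.35 CPM in oligodendrocytes and at 125, 142, 132 and 134 CPM in precursors (-6.70 ± 0.26, adjusted p = 1.1e-12). Those genes were separated in every library. Daam2, a formin that takes part in Wnt signalling, moved the other way, at 342, 495, 553 and 498 CPM against 2.50, 3.88, 1.35 and 6.83 CPM (6.98 ± 0.21, adjusted p = 1.3e-13). Smad7, an inhibitor of BMP and TGF-beta signalling, was at 394, 495, 445 and 546 CPM against 36.6, 29.4, 24.9 and 62.7 CPM (3.65 ± 0.16). Notch2 was also called higher (2.46 ± 0.39), while Notch1 was called lower (-1.87 ± 0.18).

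Of 26 tested cell cycle genes, 15 were called lower, 3 higher and 8 not called, with a median change of -1.38; 7 of the 15 were called lower in each strain, and 9 were called lower among genes with 50 or more counts in each strain. Top2a, the topoisomerase of dividing cells, had 1 count in oligodendrocytes against 210 in precursors (ratio 169, 29.9 to 6690), at 32.0, 33.8, 10.8 and 34.8 CPM in the precursor columns. Ccnd1, a cyclin of the G1 phase, was at 8.72, 9.71, 4.21 and 15.3 CPM in oligodendrocytes and at 61.1, 64.9, 61.9 and 54.7 CPM in precursors (-2.71 ± 0.22, adjusted p = 1.6e-08). Mki67, the usual marker of cycling cells, was not called, at 6.82, 4.86, 5.27 and 5.88 CPM against 5.41, 12.2, 3.37 and 11.2 CPM. The genes called higher were Ccnd3, the inhibitor Cdkn1b (1.56 ± 0.20) and Rb1 (0.80 ± 0.11). Most of this list was measured at low counts: 8 of its 34 genes, Cdk1 among them, did not reach 10 counts in each strain.

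Cholesterol synthesis genes rose in 13 of 24 tested and fell in none, with a median of 0.68 against 4.72 for the myelin proteins. Among regulators, Srebf2, the transcription factor of the pathway, was at 118, 139, 118 and 119 CPM in oligodendrocytes and at 65.7, 62.1, 49.8 and 40.4 CPM in precursors (1.16 ± 0.13, adjusted p = 7.4e-07). Insig1, which holds back that factor, rose by 2.02 ± 0.23. Among the enzymes, Ebp (2.39 ± 0.35) and Msmo1 (1.26 ± 0.17) were called.

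Enzymes of myelin lipids rose in 16 of 32 tested and fell in 5 (median 0.41, or 0.22 with scaling to total counts alone). Ugt8a, which makes galactosylceramide, was at 775, 857, 1095 and 1017 CPM in oligodendrocytes and at 127, 98.7, 137 and 130 CPM in precursors (2.92 ± 0.12, adjusted p = 2e-12). Fa2h, which hydroxylates the fatty acids of these lipids, was at 533, 651, 679 and 705 CPM against 90.3, 58.8, 87.5 and 105 CPM (2.92 ± 0.14). Elovl7, a fatty acid elongase, rose by 3.59 ± 0.13. The 5 that fell were the ceramide synthases Cers4 (-1.90 ± 0.14) and Cers6 (-1.48 ± 0.20), the desaturases Fads1 (-1.17 ± 0.20) and Fads2 (-2.66 ± 0.19) and the sphingomyelin synthase Sgms1 (-1.21 ± 0.11). The ceramide synthase Cers2, which makes very long chains, rose instead (2.67 ± 0.14), from 13.7, 18.8, 20.9 and 19.3 CPM to 97.8, 137, 114 and 111 CPM.

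Proteoglycans and matrix genes were called lower in 24 of 36 tested, 23 of them in each strain, and higher in 3 (median -3.48). Gpc5, a glypican, was at 59.1, 63.1, 47.4 and 53.0 CPM in oligodendrocytes and at 3634, 3601, 4153 and 3615 CPM in precursors (-6.06 ± 0.14, adjusted p = 1.6e-14). Bcan, the brain proteoglycan brevican, was at 12.1, 14.6, 23.2 and 9.42 CPM against 371, 497, 442 and 445 CPM (-4.90 ± 0.16). Acan, aggrecan, had no count in the 4 oligodendrocyte columns and 191 in the precursor columns, at least 51.1-fold lower against a floor of 3 counts over the group. These 3 genes were low in every oligodendrocyte column. Chst11, which sulfates chondroitin chains, fell by 6.39 on the log2 scale. The 3 that rose were Hapln2, a link protein of nodes of Ranvier (6.75 ± 0.22), Lama2, a laminin chain (5.02 ± 0.16), and Adamts4, a protease that cuts aggrecan and its relatives (4.87 ± 0.23).

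The list of growth factor ligands and receptors also held other receptors, such as Gpr17 and Gpr37. Of its 35 tested genes, 21 were called lower and 7 higher (median -0.87, or -1.40 among genes with 50 or more counts in each strain). Members of 1 family often parted. Fgfr1 was at 12.1, 9.02, 9.48 and 7.06 CPM in oligodendrocytes and at 64.1, 58.2, 58.6 and 47.8 CPM in precursors (-2.55 ± 0.18), while Fgfr2 was at 2256, 2780, 2329 and 2488 CPM against 733, 777, 747 and 763 CPM (1.70 ± 0.10). Both were separated between the types in every library. Among neuregulin receptors, Erbb3 rose by 2.86 ± 0.20 (adjusted p = 4.1e-08) and Erbb4 was not called (0.02 ± 0.10). The neurotrophin receptors Ntrk2 (-2.66 ± 0.18) and Ntrk3 (-4.29 ± 0.23) were lower. Lpar1, a receptor for lysophosphatidic acid, was at 208, 194, 281 and 248 CPM against 0.832, 2.22, 1.35 and 1.24 CPM (7.30 ± 0.20, adjusted p = 4.1e-14).

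Genes of axon contact and guidance were called in both directions, 15 of 52 higher, 22 lower and 15 not called (median -0.54). The median was -0.33 without DBA library 3 and -0.36 without DBA library 2. Cntn2, an adhesion protein of the region beside the node, was at 293, 359, 335 and 353 CPM in oligodendrocytes and at 6.24, 4.99, 2.69 and 4.35 CPM in precursors (6.10 ± 0.18, adjusted p = 5.7e-14). Its relative Cntn1 changed by -2.89 ± 0.13. Dscam, an adhesion protein of the immunoglobulin family, was at 119, 121, 178 and 113 CPM against 2831, 2627, 3121 and 2860 CPM (-4.45 ± 0.12). Ntn1, the guidance cue netrin, was at 2.27, 3.47, 0 and 0 CPM against 141, 155, 168 and 153 CPM (-6.29 ± 0.28), while its receptor Unc5b rose by 5.58 ± 0.24. The types did not overlap for any of these 5 genes.

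Receptors and channels for neuronal signals were mostly lower in oligodendrocytes. Of 31 tested glutamate receptor genes, 18 were called lower and 6 higher (median -1.29). Gria2, the AMPA receptor subunit that blocks calcium entry, was at 281, 221, 102 and 225 CPM in oligodendrocytes and at 1333, 1478, 1893 and 1694 CPM in precursors (-2.97 ± 0.37, adjusted p = 0.0029). Cacng4, an AMPA receptor partner, changed by -6.00 ± 0.21 and the NMDA receptor subunit Grin3a by -4.25 ± 0.15. Grm3, a metabotropic receptor that is also on the mature list, went the other way, at 1031, 1006, 1650 and 1292 CPM against 42.8, 37.1, 43.1 and 42.9 CPM (4.87 ± 0.14, adjusted p = 4.3e-14). Of 14 GABA receptor genes, 10 were called lower and 1 higher (median -1.68). The subunit Gabrb1 fell (-2.15 ± 0.13), and the metabotropic subunit Gabbr1 rose (1.05 ± 0.11) while its partner Gabbr2 fell (-1.98 ± 0.16).

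Of 52 tested ion channel genes, 36 were called lower, 35 of them in each strain, and 12 higher (median -1.69). Kcnd2, a channel of the A-type potassium current, was at 134, 114, 74.8 and 94.2 CPM in oligodendrocytes and at 3479, 3764, 4310 and 3803 CPM in precursors (-5.20 ± 0.17, adjusted p = 1.7e-11). Kcnip1, a partner of such channels, changed by -5.02 ± 0.16 and the calcium channel Cacna1a by -3.04 ± 0.14. Another set of channels rose: Kcna1 was at 234, 230, 328 and 247 CPM against 29.1, 24.9, 24.2 and 32.9 CPM (3.19 ± 0.14), and Ano4, of the anoctamin family, at 1803, 1837, 1876 and 1655 CPM against 188, 228, 232 and 201 CPM (3.08 ± 0.11). Kcnj10, the glial inward rectifier, rose by 0.83 ± 0.12. The types did not overlap for the 6 channel genes named here.

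Cytoskeleton and transport genes had the opposite balance, with 34 of 49 tested called higher, 32 of them in each strain, and 6 lower (median 1.46). Tubb4a, a tubulin whose mutation disturbs myelin, was at 945, 977, 1074 and 1013 CPM in oligodendrocytes and at 49.1, 28.3, 67.3 and 61.5 CPM in precursors (4.32 ± 0.17, adjusted p = 2.9e-11). Kif21a, a kinesin motor, was at 578, 605, 600 and 601 CPM against 33.7, 23.3, 32.3 and 29.8 CPM (4.32 ± 0.13), and Map7, a microtubule-binding protein, at 1160, 1396, 1483 and 1275 CPM against 81.1, 88.1, 78.7 and 81.4 CPM (4.0 ± 0.12). All 3 were separated in every library. Map2, a dendrite protein that precursors also hold, fell by 2.06 ± 0.13, and Dcx, of migrating cells, by 2.78 ± 0.22. Of the nuclear non-coding RNAs, Malat1 rose by 1.72 ± 0.10, and Neat1 was at 911, 1080, 81.1 and 64.7 CPM against 11.2, 14.4, 2.69 and 4.97 CPM (5.90 ± 0.32, adjusted p = 6.6e-07). Both BL6 oligodendrocyte columns of Neat1 stood far above the DBA ones. Its strain difference was called, with the DBA change below the BL6 change. That call was lost with DESeq2 (difference -2.07, adjusted p = 0.084) and with counts thinned to equal depth (-2.08, adjusted p = 0.18). Without DBA library 3 the difference was -1.39 and was not called either.

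Markers of other cell types were also present. The 12 neuron markers summed to 596 to 1611 CPM in oligodendrocytes and 964 to 1601 CPM in precursors, with 4 called higher, 4 lower and 4 not called. With DESeq2 none was called higher, and without BL6 library 2, BL6 library 3 or DBA library 2 there were 2. The 10 astrocyte markers summed to 260 to 360 CPM against 863 to 988 CPM, with 6 of 7 tested called lower. The 10 microglia markers summed to 97.7 to 222 CPM against 164 to 250 CPM, while of the 5 tested 3 were called higher in oligodendrocytes, 1 lower and 1 not called (median 0.53). DESeq2 called 1 of them higher. The 12 vascular markers summed to 5.68 to 36.7 CPM against 6.56 to 15.8 CPM, and none reached 10 counts in each strain. The part of RNA from these cells in the falls of receptor and channel genes was not tested. Precursors are themselves known to express some of these markers, such as Gad1 and Slc1a2.

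Whether the change was shared by the strains was examined next, with 2 libraries of each strain and no library in common. It was called in 6352 genes (44.6%) in BL6 and in 5844 (41.1%) in DBA. Of these, 4824 genes (33.9% of those tested) were called in both strains in the same direction, 2157 (15.2%) higher and 2667 (18.7%) lower, and 20 were called in both in opposite directions. Genes called in both strains made up 76.3% of the BL6 calls and 82.9% of the DBA calls. Across genes, which are not independent replicates, the changes in the strains had a Pearson r of 0.884, and of 0.962 over the 5636 genes with a mean log2 CPM of 5 or more. Of 1508 genes called in BL6 alone, 43 had a called difference between strains, and of 1000 called in DBA alone, 41. Over all genes tested that share was 2.07%. In simulated counts the test of this difference recovered 19% of 100 genes with a 2-fold and 60.6% of 99 with a 4-fold difference. A missing call therefore does not show that the strains agreed. In the same simulation 22 genes without a simulated strain difference were also called, so a single call may be false.

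**Figure D3:**
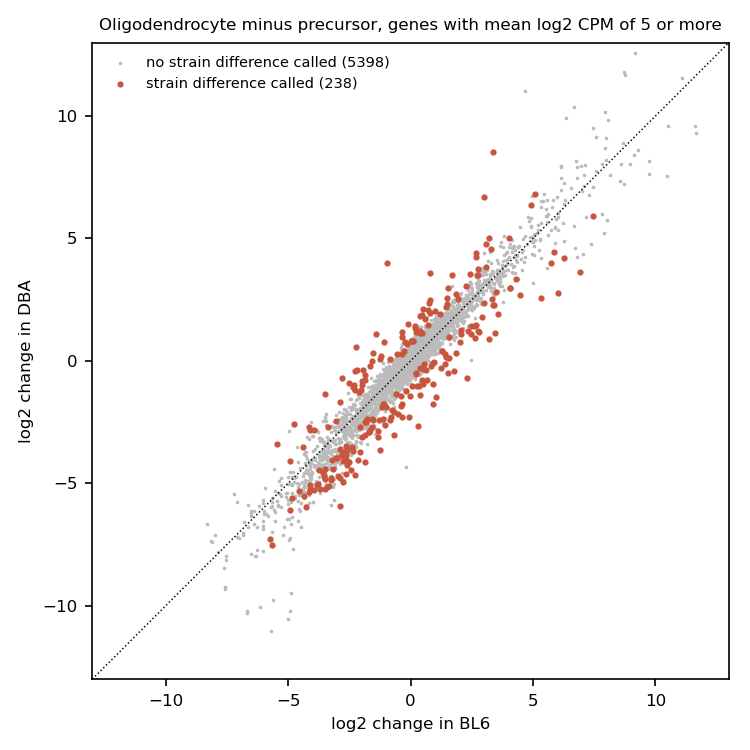
log2 change in DBA (y axis) against log2 change in BL6 (x axis) for 5636 genes with a mean log2 CPM of 5 or more; the dotted line marks equal change, grey points had no called strain difference (5398) and red points had one (238). Most points lie along the line.

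The difference itself, the DBA change minus the BL6 change, was called in 294 genes, or 2.07% of those tested, with the DBA change above in 113 (0.794%) and below in 181 (1.27%). An unadjusted p under 0.05 was reached by 1433 genes. In 226 of the 294 the change had the same sign in both strains and differed in size, and in 68 the signs differed. Oligodendrocytes differed more between strains than precursors did in 220 of these genes, and precursors more in 74. The count was sensitive to the libraries and the tool: it was 194 without BL6 library 2, 121 without DBA library 2, 178 without the library as a block, and 32 with DESeq2, all 32 among the 294. Summed counts of the mitochondrial genome also separated the strains, with means of 9041 CPM in BL6 and 686 CPM in DBA oligodendrocytes and of 7239 and 813 CPM in precursors. Some of its genes were nearly absent in DBA: over both types mt-Co2 had 8957 counts in BL6 and 3 in DBA. For mt-Nd3 the counts were 1618 and 0, and for mt-Nd4l 674 and 5. These genes were not tested, since they did not reach 10 counts in each strain. That rule left out 1795 genes that reached 10 counts in BL6 only and 1762 in DBA only. The part of the mitochondrial genome in the strain differences was not tested.

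Frmd4a, a FERM-domain scaffold protein (chr2:4017650-4614043), had the smallest p. It was at 191, 155, 191 and 180 CPM in oligodendrocytes and at 176, 106, 1158 and 1187 CPM in precursors. The 4 oligodendrocyte columns lay in 1 range, and the 2 DBA precursor columns stood far above all others. The change was 0.30 ± 0.13 in BL6 and -2.66 ± 0.13 in DBA, a difference of -2.96 ± 0.18 (adjusted p = 5.4e-20). Fcho1, a protein that starts clathrin-coated pits (chr8:71708387-71729330), was at 4.55, 4.86, 210 and 197 CPM in oligodendrocytes and at 8.32, 10.5, 7.40 and 18.0 CPM in precursors. Here the DBA oligodendrocyte columns stood alone, and the change was -0.96 ± 0.43 in BL6 and 3.98 ± 0.23 in DBA (difference 4.94 ± 0.50, adjusted p = 5.3e-11).

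Most other genes of this kind differed between strains in oligodendrocytes. Spock1, a proteoglycan of the testican family, was at 218, 317, 12.6 and 21.2 CPM in oligodendrocytes and at 52.8, 53.8, 18.2 and 36.6 CPM in precursors, so it was higher in oligodendrocytes in both BL6 libraries and lower in both DBA libraries (difference -2.98 ± 0.33, adjusted p = 7.1e-10). Faah, which breaks down the endocannabinoid anandamide, was at 33.7, 27.1, 153 and 133 CPM against 18.3, 16.6, 14.1 and 9.32 CPM (difference 2.80 ± 0.36, adjusted p = 6.7e-08). Sema5a, a semaphorin, was at 37.5, 60.4, 265 and 215 CPM against 330, 332, 380 and 396 CPM (difference 2.12 ± 0.20, adjusted p = 4.3e-12). For Faah and Sema5a the precursor columns of the strains lay close and the DBA oligodendrocyte columns stood above the BL6 ones. Dscaml1, a relative of Dscam, was at 599, 711, 154 and 168 CPM against 795, 884, 711 and 884 CPM (difference -1.94 ± 0.17, adjusted p = 4.2e-13). Tmtc2, an enzyme that adds mannose to cadherins, was at 407, 420, 102 and 82.4 CPM against 307, 320, 260 and 230 CPM, higher in oligodendrocytes in BL6 and lower in DBA.

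Strain differences also fell within the groups above, to be read against 0.794% of all tested genes with the DBA change above and 1.27% below. Of 23 newly formed genes, 7 had a DBA change below the BL6 change and none above. Of 35 genes of the list of growth factor and other receptors 3 lay above and 4 below, and of 52 genes of axon contact and guidance 1 and 6. Of 31 glutamate receptor genes 2 lay above and 2 below, and of 20 myelin protein genes 1 and 2. None of 42 lineage transcription factors or 32 myelin lipid genes had a called difference. Among genes named in earlier paragraphs, Ccnd3 and Erbb3 also had one with the DBA change above, and Neat1, Kcnd2 and Ntrk3 with it below. Each of these calls was lost with DESeq2 and with counts thinned to equal depth. Mbp, the basic protein of myelin, was at 4521, 4858, 5481 and 5150 CPM in oligodendrocytes and at 95.3, 68.2, 225 and 268 CPM in precursors, a change of 5.84 in BL6 and 4.43 in DBA (difference -1.40, adjusted p = 6.7e-08). Mag, an adhesion protein of the inner myelin layer, was at 1259, 1657, 1788 and 1574 CPM against 7.90, 8.31, 21.5 and 34.2 CPM (difference -1.55, adjusted p = 0.00044). For both, the DBA precursor columns stood above the BL6 ones while the oligodendrocyte columns lay within 1.5-fold. Nfasc, neurofascin of the paranode and node, was likewise higher in DBA precursors, at 907, 1130, 753 and 833 CPM against 151, 139, 318 and 389 CPM (difference -1.63 ± 0.17, adjusted p = 1.7e-10). Among the newly formed genes, Prom1, a membrane protein, had no count in the BL6 precursor columns and stood at 9.42 and 3.11 CPM in the DBA ones. Ptprz1, a receptor phosphatase of precursors, fell further in DBA, to 15.8 and 21.2 CPM in oligodendrocytes against 53.8 and 42.3 CPM in BL6 (adjusted p = 0.0001 for the difference). The strain difference was no longer called for Mag without DBA library 3 (adjusted p = 0.14) or with DESeq2 (0.089), for Ptprz1 without DBA library 2 (0.087) or with DESeq2 (0.052), and for Prom1 without DBA library 2 (0.054) or without the library block (0.27).

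**Figure D4:**
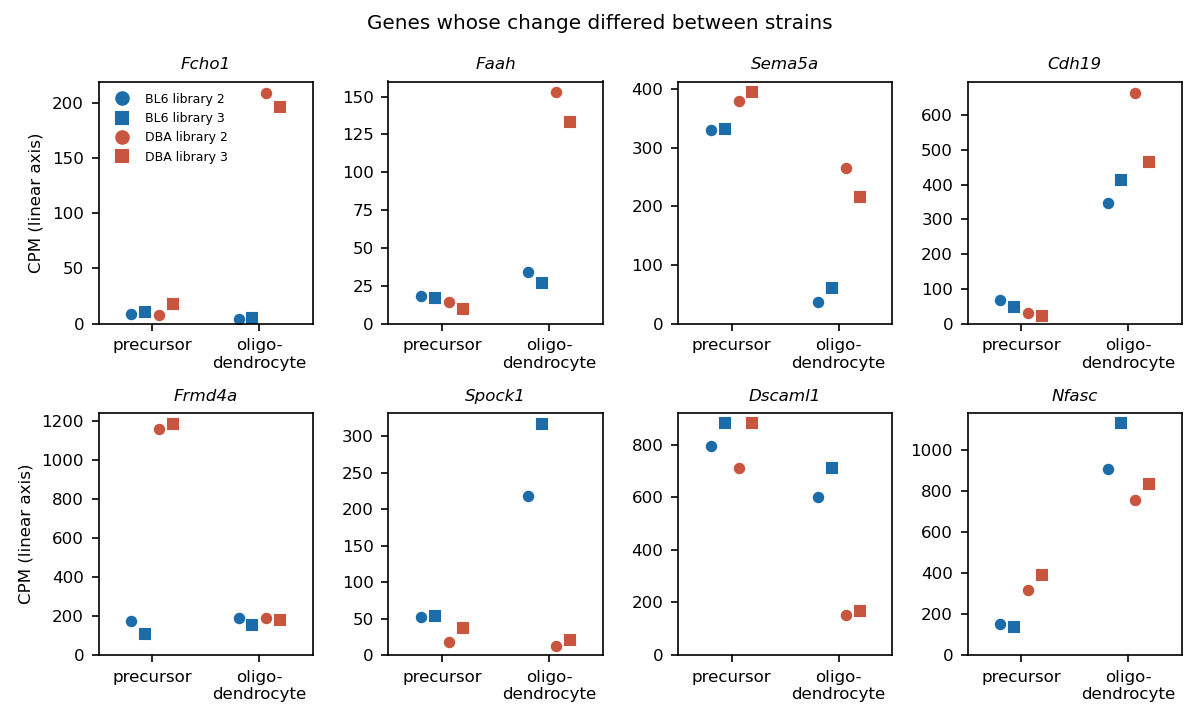
CPM on a linear axis from 0 in precursor and oligodendrocyte nuclei for 8 genes with a called strain difference, 1 point per library (blue BL6, red DBA; circle library 2, square library 3). The strains separate in oligodendrocytes for Fcho1, Faah, Sema5a and Spock1, and in precursors for Frmd4a.

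Chromatin accessibility at gene starts was set beside the RNA, from separate libraries of the same strains (single-nucleus ATAC-seq, counts of the authors' peaks). It covered 75 oligodendrocyte nuclei with 876215 counts and 111 precursor nuclei with 1621743 counts. The column of BL6 library 2 held 9 oligodendrocyte nuclei, under the minimum of 10 set for a test, so these values are a description. Peaks within 2000 bases of a gene's RefSeq start were summed, for 9498 tested genes with 20 or more counts there. Of 2304 genes higher in oligodendrocyte RNA, 75.1% had the larger share of counts in oligodendrocytes, as did 26.9% of 2368 genes lower in RNA and 59.1% of 4826 not called. For the genes higher in RNA the log2 ratio of the summed shares was 0.40, 0.29, 0.08 and 0.38 in the 4 libraries (mean 0.29 ± 0.15, SD, n = 4). For the genes lower in RNA it was -0.23, -0.30, -0.35 and -0.27 (mean -0.29 ± 0.05), below 0 in each library.

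**Figure D5:**
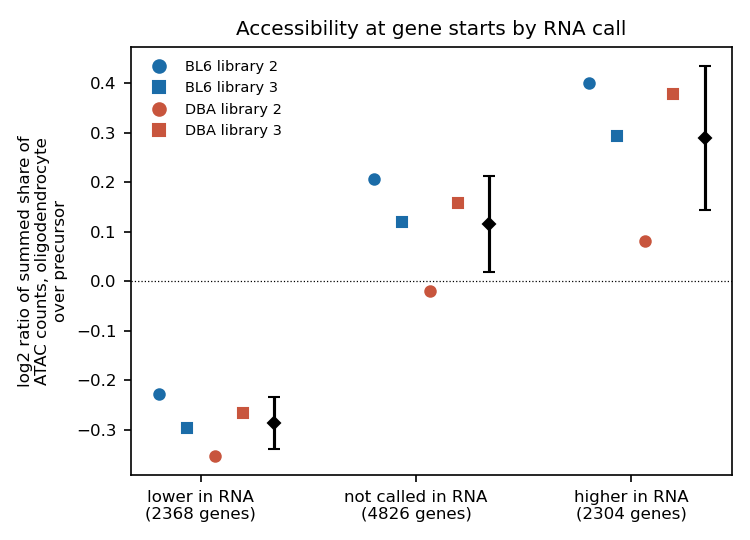
log2 ratio of the summed share of ATAC counts at gene starts, oligodendrocyte over precursor (y axis), for genes lower, not called or higher in RNA; coloured points are libraries (blue BL6, red DBA; circle library 2, square library 3) and black diamonds are means with SD over 4 libraries. In each library the ratio was highest for genes higher in RNA and lowest for genes lower in RNA.

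By list, 9 of 12 myelin protein genes with enough counts at their start had the larger share in oligodendrocytes, and 9 of 10 precursor markers, 18 of 19 proteoglycan and matrix genes and 32 of 39 ion channel genes had it in precursors. The larger share was in oligodendrocytes for 15 of 24 Notch, Wnt and BMP genes and 11 of 19 cell cycle genes. Most called members of both lists were lower there in RNA. These counts lay near the background, since over all 9498 genes the larger share was in oligodendrocytes for 5221. The interval of the ratio of shares lay above 1 for 2 Notch, Wnt and BMP genes and below 1 for 5. It lay above 1 for 1 cell cycle gene and below 1 for 3, against 1037 and 906 of all genes. Mag had 33 counts at its start in oligodendrocytes and 7 in precursors, a ratio of shares of 8.73 (95% exact interval 3.80 to 23.4). Myt1 had 6 against 154 (0.0721, 0.0261 to 0.161). Of the genes with a strain difference in RNA, Frmd4a had 2 and 38 counts at its start in the BL6 oligodendrocyte columns and 18 and 17 in the DBA ones, against 20 and 34 and then 39 and 22 in precursors. Fcho1 had 1 and 9, then 5 and 4, against 6 and 7, then 16 and 8. Whether accessibility differed between strains was not tested.

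The bases before the starts of 2 genes more accessible in oligodendrocytes and 2 more accessible in precursors are shown, because RNA and accessibility moved together there. Ermn, a cytoskeletal protein of myelinating cells, had 29 counts at its start in oligodendrocytes and none in precursors, and Mal, a myelin proteolipid, 22 against 5 (ratio 8.14, 3.01 to 27.5). Bcan had 6 against 71 (0.156, 0.0555 to 0.358) and Plpp4 5 against 50 (0.185, 0.0576 to 0.461). These 4 genes were chosen after the counts were seen. Each line gives 250 bases that end just before the start, 5′ to 3′ on the gene's strand, from RefSeq on GRCm38.p6 (mm10): chr2:58052865-58053114 (minus strand) for Ermn, chr2:127656696-127656945 (minus) for Mal, chr3:88000357-88000606 (minus) for Bcan and chr7:129256844-129257093 (plus) for Plpp4. Capitals mark a match to letters known from SOX sites on either strand. The first form searched for was ACAAAG, the other with the same first base was ACAATG, and those that start with T were spelled TCAAAG in 1 case and TCAATG in the other.
Ermn: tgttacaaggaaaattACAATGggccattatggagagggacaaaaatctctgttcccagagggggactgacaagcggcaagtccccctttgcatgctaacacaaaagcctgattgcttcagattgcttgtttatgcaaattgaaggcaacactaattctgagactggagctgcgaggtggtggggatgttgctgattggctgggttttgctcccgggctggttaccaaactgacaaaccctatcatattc
Mal: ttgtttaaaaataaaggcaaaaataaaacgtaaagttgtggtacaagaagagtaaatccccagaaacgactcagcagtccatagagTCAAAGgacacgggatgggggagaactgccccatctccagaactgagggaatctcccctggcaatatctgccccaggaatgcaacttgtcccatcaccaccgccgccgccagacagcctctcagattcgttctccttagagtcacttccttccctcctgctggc
Bcan: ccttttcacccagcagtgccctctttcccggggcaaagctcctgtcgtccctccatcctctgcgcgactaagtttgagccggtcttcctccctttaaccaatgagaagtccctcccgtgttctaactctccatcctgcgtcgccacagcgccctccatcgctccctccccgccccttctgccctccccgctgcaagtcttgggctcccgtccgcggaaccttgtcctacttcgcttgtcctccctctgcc
Plpp4: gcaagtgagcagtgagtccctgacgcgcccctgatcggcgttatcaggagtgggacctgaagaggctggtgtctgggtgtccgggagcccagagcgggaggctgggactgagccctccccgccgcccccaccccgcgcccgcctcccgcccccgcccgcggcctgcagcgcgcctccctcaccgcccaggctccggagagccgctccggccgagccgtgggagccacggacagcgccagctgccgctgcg

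Ermn and Mal held 1 match each and Bcan and Plpp4 none, with base compositions of 47.2%, 50.0%, 62.0% and 75.6% G and C. Such matches were frequent everywhere, in 39.4% of 32851 starts and in 33.7% of those of tested genes. They were in 34.3% of starts of genes higher in oligodendrocytes, 34.8% of those lower and 33.0% of those not called, and by list from 2 of 19 glutamate receptor genes to 11 of 16 myelin protein genes, with 7 of 24 proteoglycan and matrix genes and 8 of 26 myelin lipid genes between. The letters of the factor MYRF, CTGGCAC with CTGGTAC as an allowed variant, were in 6.88% of starts of tested genes. They were in 7.80% of starts of genes higher in oligodendrocytes, 7.27% of those lower and 6.23% of those not called. By list they were in 3 of 16 myelin protein genes and 3 of 18 mature oligodendrocyte genes. Other lists had similar shares, with 5 of 30 growth factor receptor genes and 6 of 40 axon contact and guidance genes. No start of 13 precursor markers or 29 lineage transcription factors held them, nor did the 4 windows shown. The SOX letters were settled on after these sequences had been seen, and a match is a description of letters, not of a bound site.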

How the data were processed

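Single-nucleus RNA was measured in 4 libraries. Per the submitters' processing notes, reads were handled with Cell Ranger 6.0.2 and Seurat 4.0.5 on mm10, and accessibility reads with Cell Ranger ATAC 2.0.0; settings, filters on nuclei and the treatment of doublets are not given in the sources used here. The authors deposited whole-number counts summed per cell type and library for 34039 genes and for 271433 peaks; single-nucleus barcodes were not analysed here. Oligodendrocyte and precursor columns of the same library come from the same tube, so the library number pairs them by construction.

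Genes with 10 or more counts in each strain (14230, holding 98.0% of BL6 and 96.4% of DBA counts) were fitted in R 4.3.3 with edgeR 4.0.16 (robust quasi-likelihood, trimmed mean of M values, factors 0.886 to 1.09), as library plus type, and as library plus a type effect per strain; DESeq2 1.42.0 served as an alternative. Named genes were the markers, the largest rises and falls called in both strains, the smallest p-values of each list and the smallest strain-difference p-values, with further list members named with their values; a few genes that this choice names are not reported here. The genes, lists and tests were chosen with earlier results of these data known. The fit was tested on simulated data. How reads of DBA map to mm10 was not tested. Exact intervals cover counting error at the 95% level. The 16 methylation samples and 59 accessibility columns of other types were not used.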

Additional observations from a re-analysis of the deposited data

Results flagged for a closer look

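In 5 of 22 quantities checked over the 4 libraries, 1 library lay far from the other 3; chance gives about 1 in 20. Oligodendrocyte counts per nucleus were 4933 in DBA library 2. The log2 ratio of oligodendrocyte to precursor CPM was 7.87 for Galnt5 in DBA library 3, 9.47 for Sec14l5 in BL6 library 3, 9.78 for Opalin in DBA library 2 and -5.60 for Has2os in BL6 library 2. In these columns the lower type held between 0 and 3 counts, so the ratio rests on the small count added before the logarithm.

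A difference of the change between strains, by the interaction test, set apart 15 of the named genes. The DBA change was above the BL6 change by 2.12 for Sema5a, 4.94 for Fcho1, 1.87 for Ptprm, a receptor phosphatase, 2.77 for Arhgap26, a regulator of the GTPase RhoA, 3.54 for Adam11, 2.80 for Faah, 1.6 for Mpped2 and 1.73 for Cdh19, a cadherin. It was below by a log2 difference of -2.96 for Frmd4a, -1.94 for Dscaml1, -1.81 for Tmtc2, -1.63 for Nfasc, -2.98 for Spock1, -1.68 for Kcnab1, a potassium channel subunit, and -1.63 for Fam155a, a partner of the sodium leak channel. All 15 were called with each library left out in turn.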

How the results depend on the processing

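Over 196 named results and 2931 values under alternatives, none reversed: 2804 kept direction and side of the threshold, 110 lost the call and 17 gained one. Libraries pair the types by construction, and without the replicate block the strain difference was called in 178 genes (65 above, 113 below), with 12 genes called in opposite directions. DESeq2 called 2257 higher, 3271 in BL6, 3302 in DBA, 2750 in both the same way and 1 in opposite ways, and 32 strain differences (13 above, 19 below), with no adjusted p for 92 of the 294. Against a 2-fold change, 3272 were called (1204 higher, 2068 lower), 2986 in BL6, 2929 in DBA, 2413 in both the same way and 0 in opposite ways, and 30 strain differences (9 above, 21 below). Counts thinned to equal depth gave 13 opposite calls and 73 differences above. Leaving out 1 library gave 121 to 283 strain differences (50 to 105 above, 71 to 185 below), 11 to 17 opposite calls and 6009 to 6209 called genes. Without BL6 library 2, 71 lay above and 194 differed in all. Without DBA library 2, 50 lay above and 71 below. With 1 library left out, the called strain differences were only in part the same genes as the 294 reported. Of the 15 named strain-difference genes, DESeq2 called 13 and gave no adjusted p for Arhgap26 and Adam11. The 2-fold test called 12, not Mpped2, Cdh19 and Fam155a. Accessibility alternatives other than a 500-base window (means 0.29 and -0.27) were not run, since no test was made. The causes of these shifts were not tested.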
